A study of Caenorhabditis elegans with 4 samples.

Results

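The *far* genes of *C. elegans* encode fatty acid and retinol binding proteins, and their mRNA levels were followed through larval development of the *prg-1* mutant. The family was taken as the 8 genes named *far-1* to *far-8*, out of 46096 genes listed in each file, of which 19519 are protein-coding. The samples were whole worms of the *prg-1* mutant strain labelled *wm161*, grown at 20°C on OP50 bacteria, with 1 poly(A) RNA library for every larval stage (L1, L2, L3 and L4). All 4 groups carry the *prg-1* mutation, wild-type worms were not analysed here, and no age beyond the stage is given. PRG-1 is a Piwi protein of the germline that binds the 21U-RNAs.

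FAR proteins are small proteins rich in helices that are known from nematodes alone, and they hold fatty acids and retinol, which dissolve poorly in water. They differ in fold from the beta-barrel fatty acid binding proteins that nematodes share with other animals. Parasitic nematodes release FAR proteins into their hosts, and in *C. elegans* the family is regarded as a set of lipid carriers.

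Levels are given as FPKM, which is the count of sequenced fragments scaled to transcript length and to library size, so that genes of different lengths can be compared. The 95% interval that Cufflinks placed on each estimate follows in parentheses. It covers error within a library only. With 1 library per stage there was no test and no replicate check of any difference between stages, and a rule of size was used in place of one. A gene was called when its log2 difference, taken on FPKM + 1, was at least 1 in size, either stage had an FPKM of at least 1 and the intervals lay apart. Genes counted as tested are those that met this minimum with a valid estimate in both stages. The libraries were of near-equal depth, at 1.005, 1.038 and 1.053 times the L1 depth for L2, L3 and L4, as recovered from low values. *prg-1* itself was detected in each library, at 11.02 to 23.6 FPKM, which does not check the genotype, because each value covers the gene as a whole. All 37 markers of the intestine, hypodermis, body-wall muscle, pharynx, neurons and germline stood at an FPKM of at least 1 in every library. None of the 8 *far* genes had a failed estimate, and 7 of them stood at an FPKM of at least 1 in every library. Sequences of the *far* genes were not used here, and how alike they are was not examined.

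The family was spread over chromosomes II, III, IV and V, with 2 sets of neighbours. *far-1* (F02A9.2) lies on the reverse strand of chromosome III (9080367 to 9081185 in ce10, the build the submitters' processing notes name, which was not checked against a ce10 annotation here), and *far-2* (F02A9.3) on its forward strand (9081679 to 9082890). They point away from each other, with 493 bases between them. On chromosome V, *far-5* (F15B9.3) runs forward from 12995601 to 12996836, while *far-3* (F15B9.1, 12996818 to 12997524) and *far-4* (F15B9.2, 12998425 to 12999659) run in reverse. The ends of *far-5* and *far-3* therefore meet, and the listed spans share 19 bases. The others stand alone, with *far-6* (W02A2.2) on chromosome IV from 13328359 to 13329319, *far-7* (K01A2.2) on chromosome II from 319793 to 321107 and *far-8* (K02F3.3) on chromosome III from 842935 to 843803, all on the forward strand. In the WBcel235 annotation the longest coding parts make 182 residues for *far-1* and for *far-2*, 189 for *far-3*, 205 for *far-4*, 176 for *far-5*, 184 for *far-6*, 138 for *far-7* and 232 for *far-8*. *far-7* has 3 coding transcripts and *far-5* has 2, so a gene value there can pool several transcripts.

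**Figure D1:**
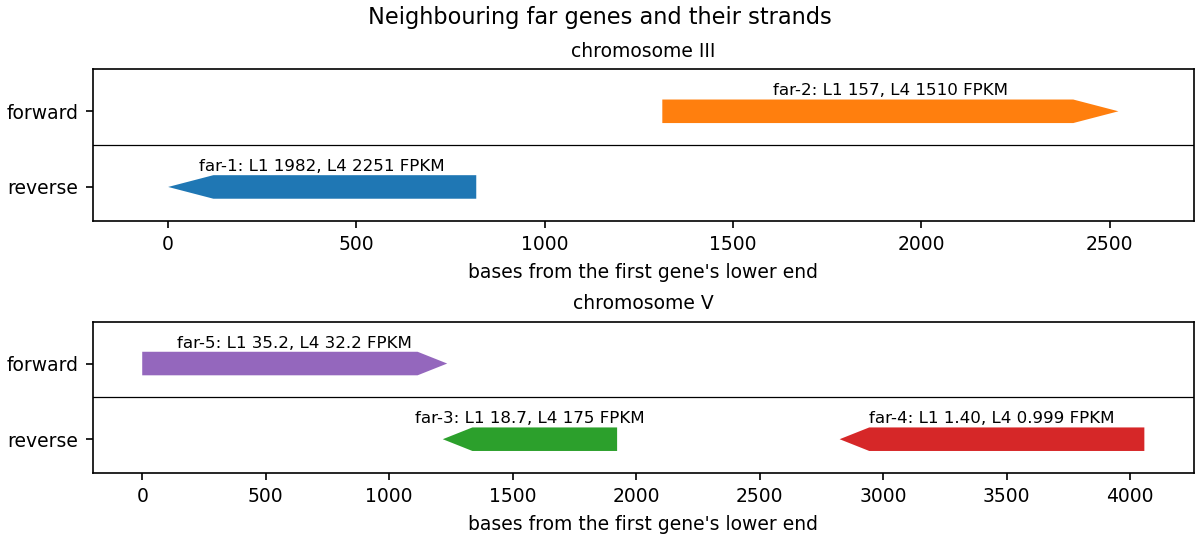
Positions and strands of the neighbouring *far* genes on chromosomes III and V, drawn to scale in bases from the first gene's lower end, with FPKM at L1 and L4 beside each. *far-1* and *far-2* point apart with 493 bases between them, and the ends of *far-5* and *far-3* share 19 bases.

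*far-1* dominated the family at each stage. It stood at 1982 FPKM (1916 to 2060) in L1 larvae, 2261 (2199 to 2347) in L2 larvae, 2609 (2554 to 2705) in L3 larvae and 2251 (2194 to 2336) in L4 larvae. The level was highest at L3 and lowest at L1, the L2 and L4 intervals overlapped, and no step came near the 2-fold bound. Its highest level was 1.32 times its lowest, against a median of 1.504 over the 11182 protein-coding genes at an FPKM of at least 1 in every library. *far-1* ranked between place 54 (L3) and place 96 (L1) among the 15599 to 16382 protein-coding genes detected at a stage. It held 82.5%, 84.1%, 77.7% and 53.6% of the summed FPKM of the family from L1 to L4.

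*far-2*, the neighbour of *far-1*, was higher at each later stage. Its level was 157 FPKM (145 to 169) in L1 larvae, 188 (175 to 201) in L2 larvae, 408 (390 to 429) in L3 larvae and 1510 (1470 to 1568) in L4 larvae, with no overlap between the intervals of any of the stages. By the rule of size it was 2.17-fold higher at L3 than L2 (1.93 to 2.46 by the intervals) and 3.701-fold higher at L4 than L3 (3.42 to 4.02). It ranked 120 at L4, against 703 at L1, among the detected protein-coding genes. As a ratio to *far-1*, *far-2* stood at 0.0794 in L1 larvae, 0.0831 in L2 larvae, 0.156 in L3 larvae and 0.671 in L4 larvae, so the neighbours did not keep a constant proportion. Of 12471 protein-coding genes tested at both steps, 16 (0.128%) were called higher at L3 than L2 and again at L4 than L3, and *far-2* is the only *far* gene among them.

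*far-3* showed its main difference at L4. It stood at 18.7 FPKM (14.8 to 22.6) in L1 larvae, 35.2 (29.5 to 40.6) in L2 larvae, 41.7 (35.8 to 47.8) in L3 larvae and 175 (162 to 188) in L4 larvae. The L2 and L3 intervals overlapped, those of L1 lay below both, and L4 lay far above all the others. It was 4.19-fold higher at L4 than L3 (3.39 to 5.25) and passed the rule there. At L2 against L1 the ratio was 1.88 (1.31 to 2.74), with intervals apart but under the 2-fold bound.

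*far-6* was also higher at each later stage, in smaller steps. Its FPKM was 11.5 (7.44 to 12.4) in L1 larvae, 22.7 (15.5 to 23.1) in L2 larvae, 36.7 (25.9 to 34.5) in L3 larvae and 52.7 (37.8 to 47.6) in L4 larvae. The intervals did not overlap at any step, though no single step reached the rule. The values at L3 and L4 lie above their own intervals, so the levels of *far-6* are uncertain. Over all stages it was 4.59-fold higher at L4 than L1 (3.04 to 6.40). Intervals apart and higher at each of the 3 steps were found for *far-2* and *far-6*, and for 33 of the 11182 protein-coding genes at an FPKM of at least 1 in every library (0.295%).

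**Figure D2:**
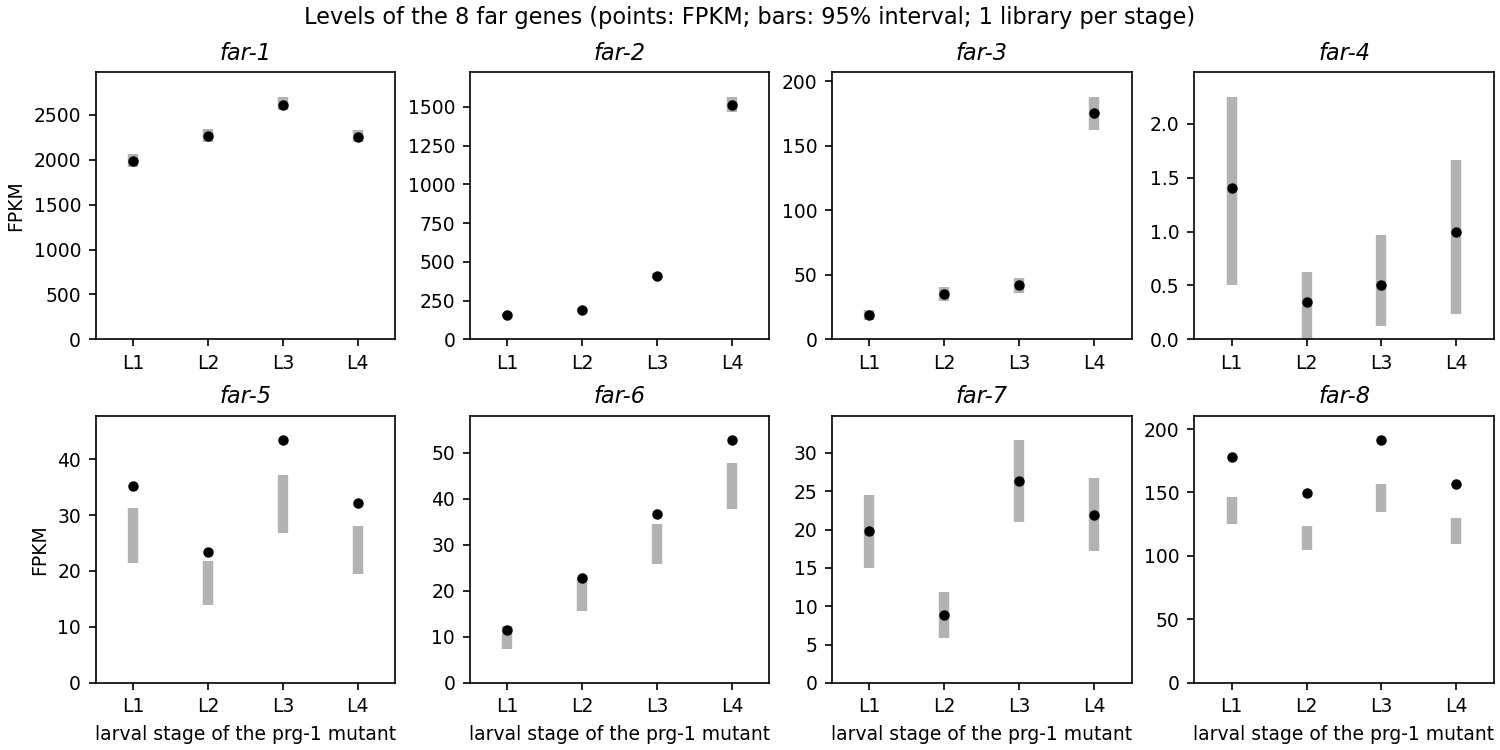
FPKM of each *far* gene (points) with its 95% interval (bars) at L1, L2, L3 and L4 of the *prg-1* mutant, 1 library per stage and a separate linear axis per gene. *far-2*, *far-3* and *far-6* are highest at L4, *far-5*, *far-7* and *far-8* are lowest at L2, and the points of *far-5* and *far-8* stand above their bars at every stage.

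*far-7* was lowest at L2. Its level was 19.8 FPKM (15.04 to 24.5) in L1 larvae, 8.86 (5.81 to 11.9) in L2 larvae, 26.3 (20.9 to 31.7) in L3 larvae and 21.95 (17.2 to 26.7) in L4 larvae. The L2 interval lay below the other 3, which overlapped each other. At L2 *far-7* was 0.448 times its L1 level (0.237 to 0.792), and at L3 it was 2.97-fold higher than at L2 (1.76 to 5.45), so that it passed the rule in each direction. The L2 against L1 call was lost once the libraries were rescaled by the median ratio (log2 difference -0.97).

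*far-8* was likewise lowest at L2 and highest at L3, within a narrow range. It stood at 178 FPKM in L1 larvae (interval 125 to 146), 149 in L2 larvae (104 to 123), 191 in L3 larvae (135 to 157) and 156 in L4 larvae (110 to 130). Each value lies above its own interval, by a nearly constant factor of 1.31 to the midpoint at all 4 stages, so the level is uncertain while the ratios between stages hardly depend on which of the values is taken. The L2 interval lay below those of L1 and L3 and overlapped that of L4. No step of *far-8* reached the rule, and its highest level was 1.28 times its lowest.

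*far-5* was also lowest at L2 and highest at L3. Its FPKM was 35.2 in L1 larvae (21.4 to 31.3), 23.3 in L2 larvae (13.8 to 21.7), 43.4 in L3 larvae (26.7 to 37.1) and 32.2 in L4 larvae (19.5 to 28.0). Every value lies above its own interval, between 1.31 and 1.36 times the midpoint. Only the L2 and L3 intervals lay apart, with a ratio of 1.86 at L3 against L2 (1.23 to 2.68), and no step passed the rule. *far-3*, which meets *far-5* at its end, stood at 0.531, 1.51, 0.961 and 5.43 times *far-5* over L1 to L4. By the intervals the ratio ran from 0.474 to 1.05 at L1 and from 5.78 to 9.64 at L4. The L3 ratio (range 0.965 to 1.79) and the L4 ratio lie below their ranges, as the *far-5* values there are above their own intervals. Whether *far-3* stood below *far-5* at L3 is therefore uncertain. Reads over the shared bases cannot be told apart without strand, whose use is not given in the sources used here. *far-5*, *far-7* and *far-8* were lowest at L2 and highest at L3, as were 8.0% of the 11182 protein-coding genes at an FPKM of at least 1 in every library, and 26.6% were lowest at L2.

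*far-4*, the remaining gene of the chromosome V set, was near the limit of detection. It stood at 1.40 FPKM (0.501 to 2.25) in L1 larvae, 0.349 (0 to 0.623) in L2 larvae, 0.507 (0.121 to 0.966) in L3 larvae and 0.999 (0.238 to 1.67) in L4 larvae. All 4 intervals overlapped, so no order of its stages was detectable at this depth. Between *far-4* and *far-1* the family spanned ratios of 1413, 6484, 5148 and 2254 from L1 to L4, which rest on the uncertain values of *far-4*. The interval half-width was 62.5% to 89.3% of the value for *far-4*, against 2.89% to 3.62% for *far-1*.

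In the order of levels, *far-1* was first and *far-4* last at each stage. At L4 *far-2*, *far-3*, *far-8*, *far-6*, *far-5* and *far-7* followed *far-1*, and only *far-5* and *far-7* had intervals that overlapped with the neighbour in that order. At L1 the order after *far-1* was *far-8*, *far-2*, *far-5*, *far-7*, *far-3* and *far-6*, where *far-8* and *far-2* overlapped, as did *far-5* and *far-7*, and *far-7* and *far-3*. *far-3* thus held place 3 at L4, against place 6 at L1.

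The summed FPKM of the family was 2403 in L1 larvae, 2689 in L2 larvae, 3357 in L3 larvae and 4201 in L4 larvae. Summed interval bounds run from 2246 to 2469, 2543 to 2770, 3188 to 3443 and 4010 to 4325, and do not overlap. The sum at L4 was 1.75 times that at L1, and *far-2* made 75.3% of that difference, *far-1* 14.99% and *far-3* 8.69%. Between L3 and L4 the level of *far-1* was lower by 358 FPKM while that of *far-2* was higher by 1102 FPKM. Without *far-1* the sum was 422, 428, 748 and 1950 FPKM from L1 to L4.

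**Figure D3:**
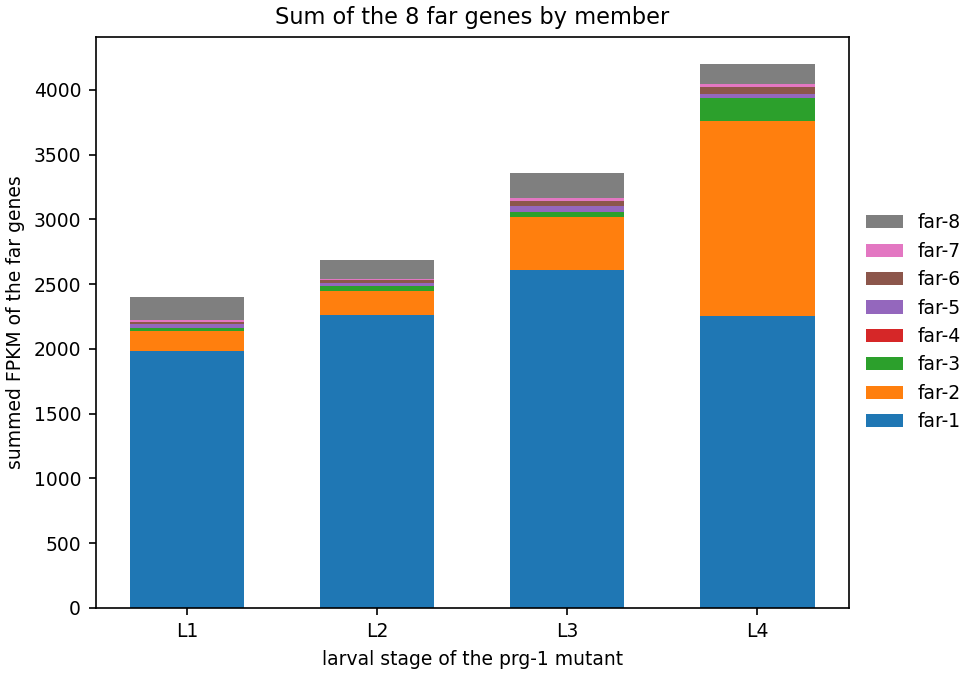
Summed FPKM of the 8 *far* genes at L1 to L4 of the *prg-1* mutant, stacked by gene. The sum stands at 2403, 2689, 3357 and 4201 FPKM, and the *far-2* part widens to 36.0% of it at L4, against 6.55% at L1.

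Counted over the family, the calls among the 8 members are given for each comparison beside the share of all tested protein-coding genes. At L2 against L1, 8 members were tested, none was higher and *far-7* was lower, while 7.0% of 13115 tested protein-coding genes were higher and 2.58% lower. The median log2 difference was -0.03 over the members and -0.12 over all tested genes. Rescaling the libraries by the median ratio moved this step by up to 0.12 on the log2 scale, and then *far-6* was called higher (log2 difference 1.03) and *far-7* was no longer called lower. After that rescaling, 7.60% of all tested protein-coding genes were higher and 2.18% lower. At L3 against L2, *far-2* and *far-7* were higher among 7 tested members and none was lower, against 1.74% and 3.29% of 12820 genes, with medians of 0.67 over the members and -0.03 over all tested genes. The 7 tested members each had a positive difference at this step, though the L2 and L3 intervals of *far-3* overlapped. *far-4*, which was below the filter, had one of 0.16 with overlapping intervals.

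At L4 against L3, *far-2* and *far-3* were higher among 7 tested members and none was lower, where 3.84% of 12978 genes were higher and 0.532% lower. The member median was -0.21, and that of all tested genes was 0.0036, while *far-1*, *far-5*, *far-7* and *far-8* had small negative differences. At L4 against L1, *far-2*, *far-3* and *far-6* were higher and none of the 8 tested members was lower, against 10.3% and 4.66% of 13365 genes. Their log2 differences at L4 against L1 were 3.25, 3.16 and 2.11, and the 5 other members lay between -0.27 and 0.18. Counted from the most positive difference, *far-2* stood at place 172, *far-3* at place 192 and *far-6* at place 507 of the 13365 genes.

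**Figure D4:**
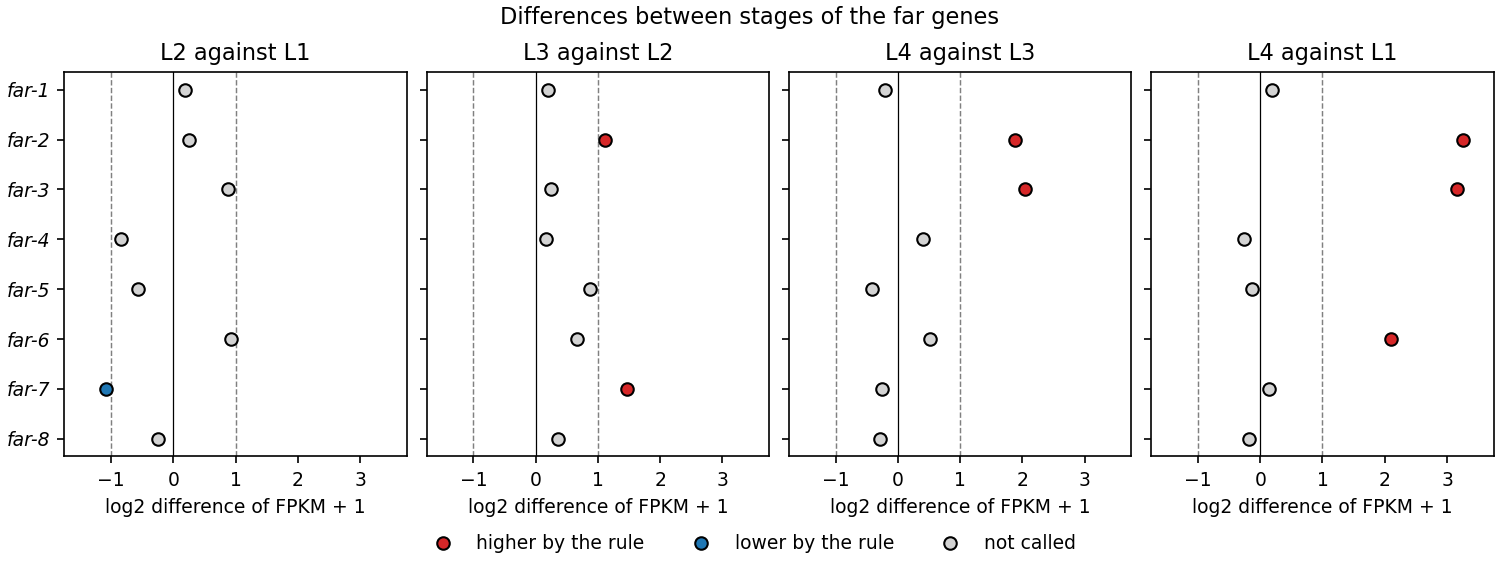
Log2 difference of FPKM + 1 of each *far* gene for L2 against L1, L3 against L2, L4 against L3 and L4 against L1. Dashed lines mark a difference of 1 in each direction, and red (higher) and blue (lower) mark genes that passed the rule of size, which at L4 against L1 are *far-2* (3.25), *far-3* (3.16) and *far-6* (2.11).

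All 5 markers of the germline, which grows strongly in late larvae, and 4 of 7 of the hypodermis were higher at L4 than L1 by the rule. So were *far-2*, *far-3* and *far-6*, and 10.3% of all tested protein-coding genes. The called hypodermal markers were *rol-6*, *dpy-13*, *sqt-3* and *wrt-2*, each of them highest at L2. The 5 germline markers summed to 33.4, 49.7, 68.1 and 151 FPKM from L1 to L4. By the rule 3 of 5 were higher at L4 than L3, against 3.84% of all tested protein-coding genes. The 8 intestinal markers had sums of 8272, 6867, 8265 and 8491 FPKM, and 1 marker of the 8, *mtl-2*, was higher at L4 than L1. *mtl-2* stood at 33.8, 48.5, 61.4 and 106 FPKM over L1 to L4, with each value outside its own interval. The 7 hypodermal markers summed to 672, 6466, 3578 and 4943 FPKM, with 4 of 7 higher at L2 than L1. The median log2 difference at L4 against L1 was 1.83 over the germline markers and 1.96 over the hypodermal markers. The 6 markers of body-wall muscle, with sums of 3835 to 5865 FPKM, and the 5 of the pharynx, with 208 to 284 FPKM, had 1 call between them, a muscle gene higher at L4 than L1. The 6 neuronal markers had none, and their sums of 300 to 2839 FPKM include an L1 value of *unc-31* of 2412 FPKM with a very wide interval. In whole worms, more cells of a type and more RNA per cell cannot be told apart, and the part of any tissue in the *far* levels was not tested.

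Among genes of fatty acid metabolism, a low level at L2 was frequent. The list held 23 genes of fatty acid synthesis, desaturation and elongation with their regulators, chosen when earlier results of these data were known. Of its 19 members at an FPKM of at least 1 and status OK in every library, 12 had an L2 interval below those of both L1 and L3. *far-7* and *far-8* did so among the *far* genes, and 547 of all 11182 such protein-coding genes did (4.89%). So did 4 of 12 such genes of the *lbp* and lipoprotein list (*lbp-4*, *lbp-6*, *lbp-8* and *lbp-9*). Of the intestinal markers 2 of 8 did (*vha-6* and *asp-1*), and none of the markers of the other tissues. Intervals are relatively narrower at higher FPKM, so this count depends on level, and the genes were not matched for it. By FPKM alone, 13 of the 19 were lowest at L2, as were *far-5*, *far-7* and *far-8*, against 26.6% of the 11182 genes. In the *lbp* and lipoprotein list 7 of 12 were lowest at L2, and 3 of 8 intestinal markers, so the low L2 level was not particular to the fatty acid list. The 12 genes of the fatty acid list include *fasn-1*, the fatty acid synthase, *fat-6*, a stearoyl-CoA desaturase, *fat-2*, a delta-12 desaturase, and the elongases *elo-1*, *elo-2*, *elo-5* and *elo-6*. *fasn-1* gave 176, 79.0, 129 and 115 FPKM over L1 to L4. *fat-6* gave 329.7, 194, 338 and 365 FPKM, with each value outside its own interval. The fatty acid list had a median log2 difference of -0.50 at L2 against L1 and of 0.42 at L3 against L2, beside -0.12 and -0.03 over all tested genes.

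By the rule of size, the fatty acid list had 1 gene higher and 1 lower at L2 than L1 (*elo-4* and *fasn-1*), no call at L3 against L2, and *elo-4*, *fat-5* and *fat-7* higher at L4 than L3. *fat-5*, a palmitoyl-CoA desaturase, stood at 6.71, 6.97, 6.03 and 26.3 FPKM over L1 to L4. *fat-6* and *fat-7* are close copies that may share reads, so their values are uncertain. *fat-1* had a failed estimate at L2 and was left out there. Whether the *far* and fatty acid transcripts lie in the same cells was not tested.

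**Figure D5:**
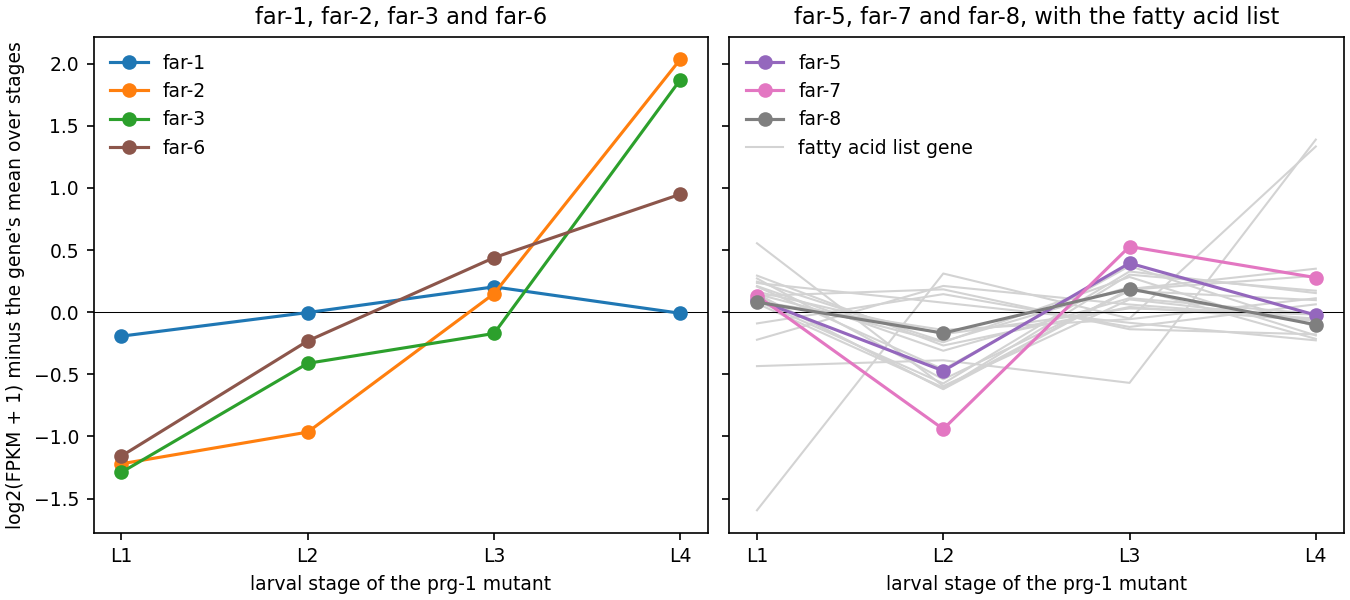
Log2(FPKM + 1) at L1 to L4 minus each gene's own mean over the stages, for *far-1*, *far-2*, *far-3* and *far-6* (left) and for *far-5*, *far-7* and *far-8* over the 19 fatty acid list genes measured at every stage (right, grey lines). *far-2* and *far-3* climb to L4, and *far-5*, *far-7* and *far-8* dip at L2, where 12 of the 19 grey genes have intervals below those of L1 and L3.

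A separate list of 18 *lbp* and lipoprotein-related genes held the 9 *lbp* genes of the beta-barrel fatty acid binding proteins and the vitellogenin genes. It also held *lrp-1*, *dsc-4* and *rme-2*, which are not lipid binding proteins of these families. No *lbp* gene was called higher at L3 than L2 or at L4 than L3. *lbp-6*, the highest, had 897, 643, 939 and 927 FPKM over L1 to L4, and *lbp-9* had 207, 151, 194 and 212 FPKM, each lowest at L2. By the rule, *lbp-7* was higher and *lbp-8* lower at L2 than L1 (66.4 FPKM at L2, against 27.02 at L1, both above their intervals, and 29.7 at L2, against 73.1 at L1). *vit-2* and *vit-6* were also lower at L2 than L1. At L4 against L3 all 6 vitellogenin genes, which encode yolk proteins, were higher and no *lbp* gene was, among 18 genes tested in the list. Of all tested protein-coding genes 3.84% were higher. *vit-3*, *vit-4* and *vit-5* are near-identical and may share reads. *vit-2* stood at 67.3 FPKM at L4, against 0.236 at L3.

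Patterns over the 4 stages were compared by the root mean square difference of log2(FPKM + 1), each gene taken relative to its own mean. With 4 points from single libraries such likeness is a description only, and it depends on how common a pattern is. Within 0.1 of the pattern of *far-8* lay 733 of 11182 genes, and within 0.1 of *far-1* lay 388. *far-5* had 55 such genes, *far-6* had 5, *far-7* had 3, and *far-2* and *far-3* had none. The cut of 0.1 was the same for each member and was not matched to the size of its differences, on which these counts depend. The highest level was 9.60 and 9.35 times the lowest for *far-2* and *far-3*, against 1.28 for *far-8* and 1.32 for *far-1*. The nearest to *far-2* were the collagen gene *col-143* (0.24), F23D12.11 (0.28) and Y47G6A.33 (0.32), and *far-3* itself lay at 0.33 from *far-2*. The nearest to *far-3* were Y47G6A.33 (0.16) and *clec-12*, a C-type lectin gene (0.16), followed by *col-143* and *hpo-32* (0.28 each), which are also among the 5 nearest to *far-2*. *mab-10* (0.057), a transcriptional cofactor of the larva-to-adult switch, lay nearest to *far-6*. Y39B6A.1 (0.062) and *lgc-32* (0.082) lay nearest to *far-7*, and the lipase-like gene *lipl-6* (0.037) was among the 5 nearest to *far-5*.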

How the data were processed

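Poly(A) RNA of whole *prg-1* mutant worms was sequenced by the authors in 1 library per larval stage. Per the labels, reads were mapped with TopHat2 (2.0.8) and levels estimated with Cufflinks (2.1.1) for ce10. Which annotation was used, how multiply matching reads were treated and whether strand was used is not given in the sources used here, so similar family members may share reads. The deposited values are FPKM per gene with a 95% interval and a status. Per-library failed estimates (18 to 41 genes) were left out.

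Python (3.11.15), numpy (2.4.6), pandas (2.3.3) and matplotlib (3.10.9) were used. Listed starts count from 0 and were raised by 1. Biotypes came from RefSeq by sequence name (44817 matches) and then from the WBcel235 annotation, which also gave strands. Named genes are the 8 members, the genes beside them, the 5 nearest patterns per member, and list members that met the rule of size or had the highest mean FPKM. List genes named for a low L2 level, and *unc-31*, were chosen after their values were seen. Members and lists were chosen with earlier results of these data known. Alternatives changed the pseudocount (0.1), filter (none, or 5), fold (1.5 or 4), scaling, use of intervals and value taken.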

Additional observations from a re-analysis of the deposited data

How the results depend on the processing

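No paired analysis was possible because the stages have 1 library each. After median-ratio rescaling, 1 *far* gene (*far-6*) was higher and 0 were lower at L2 than L1, where *far-7* had been lower. Of all tested protein-coding genes, 7.60% were then higher and 2.18% lower. At 4-fold, 0 genes were lower at L2 than L1, 0 were higher at L3 than L2 and 1 (*far-3*) was higher at L4 than L3, fewer by construction. At 1.5-fold, 2 (*far-3* and *far-6*) were higher at L2 than L1 and 4 (*far-2*, *far-5*, *far-6* and *far-7*) at L3 than L2, more by construction. The shares of all tested protein-coding genes there were 9.72% and 4.33%. Each of the other counts kept its value under each alternative run, including the 3 genes higher at L4 than L1. The pseudocount, the filters, the sum rescaling, leaving out the intervals and the interval midpoint changed no count. With a pseudocount of 0.1 the log2 difference of *far-4* at L2 against L1 was -1.74, within overlapping intervals. No called difference changed sign. The midpoint of the interval in place of FPKM moved 10 of 32 levels beyond their interval half-width, all of *far-5*, *far-6* and *far-8*. The median ratio moved 2, and the sum rescaling moved 22. That rescaling multiplied every library by nearly the same factor, 0.807 at L4 to 0.820 at L3. All 32 log2 differences stayed within their interval bounds under the sum rescaling. The median ratio moved 2 beyond those bounds, both of *far-1*. They went from 0.190 to 0.306 at L2 against L1 and from 0.184 to 0.306 at L4 against L1, still under the 2-fold bound. Depth limits *far-4* most.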

Other observations

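Levels of the genes beside the *far* genes are given as a description, and their likeness to the *far* genes was not tested. F02A9.4, on the far side of *far-2*, had 86.9, 78.5, 93.3 and 95.8 FPKM over L1 to L4, and F02A9.1, beyond *far-1*, at 3.37, 3.14, 2.77 and 2.102 FPKM. *inft-2*, next to *far-4*, stood at 3.86 to 5.83 FPKM, and *dsl-7*, next to *far-5*, at 0.755 to 2.33 FPKM. *far-6* lies between *fat-2*, with 1964 bases between them, and *pqn-74*, with 216 bases. *fat-2* stood at 485, 328, 407 and 376 FPKM over L1 to L4. *pqn-74* stood at 10.1, 206, 75.9 and 148 FPKM over the same stages, so that the neighbours of *far-6* were lowest at different stages. Its L2, L3 and L4 values lie above their own intervals and are uncertain. K02F3.9, on one side of *far-8*, stood at 25.2, 37.4, 51.9 and 40.4 FPKM over L1 to L4, and all 4 values lie above their own intervals. K02F3.2, on the other side, stood at 40.2, 41.7, 46.4 and 44.7 FPKM. Both were highest at L3, as *far-8* was, but lowest at L1, and the L1 and L3 intervals of K02F3.2 overlapped. K01A2.12, beside *far-7*, stood at 8.85, 11.2, 7.61 and 9.77 FPKM over L1 to L4, with the values at L2 and L3 above their own intervals. K01A2.10, on the other side of *far-7*, stood at 18.3, 17.7, 15.2 and 11.6 FPKM.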
